A study of Rattus norvegicus with 2 samples.

Results

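The genes described here encode proteins of the basement membrane, the thin sheet of matrix on which cells rest, together with the fibulins that attach to it. They were fixed by name as 32 genes: the type IV collagens, 3 further basement membrane collagens, 5 laminin alpha chains, 5 laminin beta or gamma chains, 4 linker proteins, 5 fibulins and 4 adaptor proteins. Of the 32 genes, 30 had a probe set on the array that carried the gene's symbol alone, and Col4a3 and Npnt had none. They belong to 14218 genes read by the array, and the list was chosen with earlier results of these data known.

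The samples were astrocytes, glial cells that support neurons and contact vessels, grown from the hippocampus of Sprague-Dawley rat embryos at embryonic day 18, with the genotype given as normal. The control cells expressed IRES2-RFP, a vector with a red fluorescent reporter, and the 5ppase cells expressed 5ppase-IRES2-RFP, which carries 5ppase ahead of the same reporter. The transfection label of that sample reads 55ppase-IRES-RFP, taken here as the same construct. The series sets active calcium signalling (control) against no signalling (5ppase), and asks which transcripts differ. The labels do not spell out 5ppase, usually short for a 5-phosphatase of inositol phosphates, which removes the messenger that releases stored calcium. They name no promoter and give no share of cells that took up a vector. RNA from each culture was read on 1 single-colour Affymetrix array, so each value below comes from 1 array, no test or p-value was possible, and every difference describes these 2 arrays without a replicate check.

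Basement membranes are built from 2 networks. Laminins, each a trimer of an alpha, a beta and a gamma chain, assemble at the cell surface, and type IV collagen chains form a second, cross-linked sheet. Nidogens and the heparan sulfate proteoglycans perlecan and agrin tie the sheets together, and fibulins connect them to elastic fibres and fibronectin. In the brain, astrocyte end feet rest on such a sheet along blood vessels and under the pia, and astrocytes themselves make part of it.

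Type IV collagens, the other collagens and laminin alpha chains each held a gene at least 1.5-fold higher and a gene at least 1.5-fold lower in 5ppase. Of all genes compared, 5.25% were that much higher and 5.46% that much lower. Col18a1 was 6.89-fold lower in 5ppase, while its close relative Col15a1 was 1.83-fold higher. Among laminin alpha chains, Lama4 (1.69-fold) and Lama3 (1.61-fold) were higher and Lama5 was 1.85-fold lower. Among type IV collagens, Col4a1 was 1.63-fold higher and Col4a6 1.72-fold lower. The shared laminin chains Lamb1 and Lamc1 gave nearly the same signal on both arrays (log2 ratios of -0.04 and -0.06, here and below 5ppase over control).

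A gene was compared where its signal lay above a floor of 62.0, the 40th percentile of all signals, on both arrays and reached 208, the 60th percentile, on at least 1. Of the 30 genes on the array, 23 passed, and 22 of these were bright on both arrays. Smoc2 alone passed through the 5ppase array only, so it had to differ to be compared. At least 1.5-fold apart were 9 of the 23 (39.1%), beside 10.7% of all 8261 genes compared. Because the members were chosen with earlier results of these data known, this difference in share is a description and no test. They were 5 higher in 5ppase (background 5.25%) and 4 lower (background 5.46%). At 2-fold only Smoc2 was higher (background 1.5%) and only Col18a1 lower (background 1.42%). Among the 22 bright on both arrays 4 were at least 1.5-fold higher (background 3.71% of such genes) and 4 lower (background 3.81%). The median log2 ratio of the 23 was 0.28, with 13 positive and 10 negative, beside -0.02 over all genes compared.

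**Figure D1:**
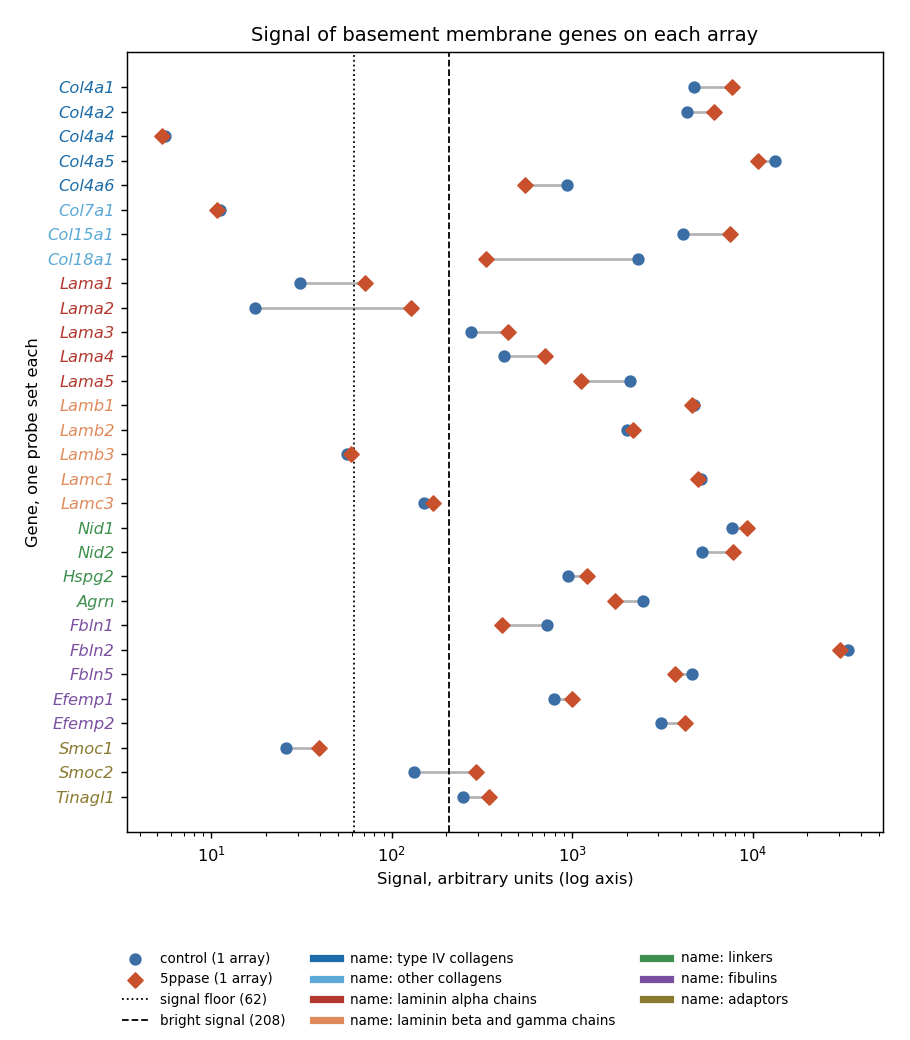
Signal of the 30 genes on the array, in arbitrary units on a log axis, with 1 round point for control and 1 diamond for 5ppase, joined by a grey line, and names coloured by group. The long lines of Col18a1 (2299 to 334) and Lama2 (17.5 to 127) stand out, Lama2 below the bright signal of 208 on both arrays.

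The only internal repeat was a further probe set of the same gene, which reads another stretch of the transcript. Between such probe sets of 1881 genes the log2 ratios had a spread of 0.26 (SD of the paired differences, scaled to 1 probe set). This spread covers differences between probe sets on the same arrays, including transcript stretches that differ in their ratio. It does not cover labelling or hybridisation differences shared by a gene's probe sets, nor the difference between cultures. Second probe sets above the floor on both arrays existed for 7 of the compared members, and all 7 had the sign of the first. Members beyond 1.5-fold with such a repeat were Col4a1, Col4a6, Col15a1 and Col18a1. Lama3, Lama4, Lama5, Fbln1 and Smoc2, also beyond 1.5-fold, had none.

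Col18a1 encodes a basement membrane collagen that carries heparan sulfate chains and releases endostatin from its C-terminal end. At its brightest probe set the signal was 2299 in control but 334 in 5ppase, a log2 ratio of -2.78 and the second lowest ratio of the 8261 genes compared. Its other probe set gave 1651 and 589 (-1.49). Both lay further from 0 than any other member on the lower side, but they differed from each other by 1.30, so the size of the difference depended on the transcript stretch read. Col18a1 transcripts start at more than one promoter, and which stretch each probe set reads was not examined.

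Col15a1, which belongs to the same small collagen subfamily and lies on the stromal face of basement membranes, differed in the opposite direction. Its probe sets gave 4081 and 7484 (log2 ratio 0.87) and 2423 and 5312 (1.13). Both pointed to the 5ppase array. The log2 ratios of Col15a1 and Col18a1 stood 3.66 apart at their brightest probe sets. Col7a1, which forms the anchoring fibrils of skin, lay under the floor in both samples (11.2 and 10.7).

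Because these relatives differed in opposite directions, the 250 bases before a single annotated start of each gene are shown. They come from the RefSeq-derived promoter table of the rat build GRCr8, which lists 28 of the 32 genes. Whether the transcripts read by either Col18a1 probe set begin at the start shown was not examined. Col18a1 is at chr20:11473395-11473644 and Col15a1 at chr5:66297296-66297545, both on the plus strand. Capitals mark GGGCGG, the GC box, on either strand (where it reads CCGCCC), and CCAAT, also searched on both strands.
Col18a1: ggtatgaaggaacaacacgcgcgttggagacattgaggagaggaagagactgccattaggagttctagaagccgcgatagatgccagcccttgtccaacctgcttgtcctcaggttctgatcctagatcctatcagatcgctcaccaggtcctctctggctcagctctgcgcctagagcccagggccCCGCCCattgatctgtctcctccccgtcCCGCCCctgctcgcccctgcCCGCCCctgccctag
Col15a1: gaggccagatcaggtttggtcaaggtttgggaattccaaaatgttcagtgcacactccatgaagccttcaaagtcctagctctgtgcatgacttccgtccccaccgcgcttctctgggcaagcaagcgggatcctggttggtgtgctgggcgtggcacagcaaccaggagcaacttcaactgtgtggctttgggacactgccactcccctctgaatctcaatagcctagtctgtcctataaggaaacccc
The Col18a1 window held 3 GC boxes and no CCAAT, and the Col15a1 window held neither motif. Of 27457 rat promoter windows of this length, 32.4% held a GC box and 34.3% a CCAAT. The C and G content was 60.4% for Col18a1 and 54.0% for Col15a1. These matches describe letters in a window and not binding.

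The type IV collagen genes lie in head-to-head pairs. The ratios had the same sign within each measured pair and opposite signs between the pairs. In each measured pair 1 gene was beyond 1.5-fold, beside 10.7% of all genes compared. Col4a1 and Col4a2 encode the chains of the network found in nearly all basement membranes. The signals of Col4a1 were 4715 in control and 7696 in 5ppase, a log2 ratio of 0.71, with 4256 and 7299 (0.78) at its second probe set. Col4a2 gave 4316 and 6070 (0.49), under the 1.5-fold line. Both had more signal in 5ppase, and their ratios differed by 0.21, less than the spread between probe sets of 1 gene.

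Col4a5 and Col4a6 encode chains of a second network of more restricted tissue range. Col4a6 gave 938 and 545 (log2 ratio -0.79), and 931 and 453 (-1.04) at its second probe set. Col4a5 gave 13280 and 10737 (-0.31), within 1.5-fold. Both members of this pair had less signal in 5ppase. Between the pairs, the ratio of Col4a1 stood 1.01 above that of Col4a5 and the ratio of Col4a2 1.28 above that of Col4a6. Col4a4, a chain of the network known from kidney glomeruli, stayed under the floor in both samples (5.5 and 5.3), and its partner Col4a3 was not measured.

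In the same promoter table the starts of Col4a1 and Col4a2 lie on opposite strands of chromosome 16 with 76 bases between them, those of Col4a3 and Col4a4 on chromosome 9 with 412, and those of Col4a5 and Col4a6 on chromosome X with 1414. The stretch between Col4a1 and Col4a2 is shown whole because it lies upstream of both genes, which had more signal in 5ppase together. It is chr16:84885521-84885596 in GRCr8, written on the plus strand, that of Col4a1, with the same motifs in capitals.
Col4a1-Col4a2: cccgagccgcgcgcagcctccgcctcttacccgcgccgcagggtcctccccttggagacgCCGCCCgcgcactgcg
It held 1 GC box and no CCAAT, and 78.9% of its bases were C or G. Of the 76 bases before the start of all 27457 promoters, 19.3% held a GC box and 13.0% a CCAAT.

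**Figure D2:**
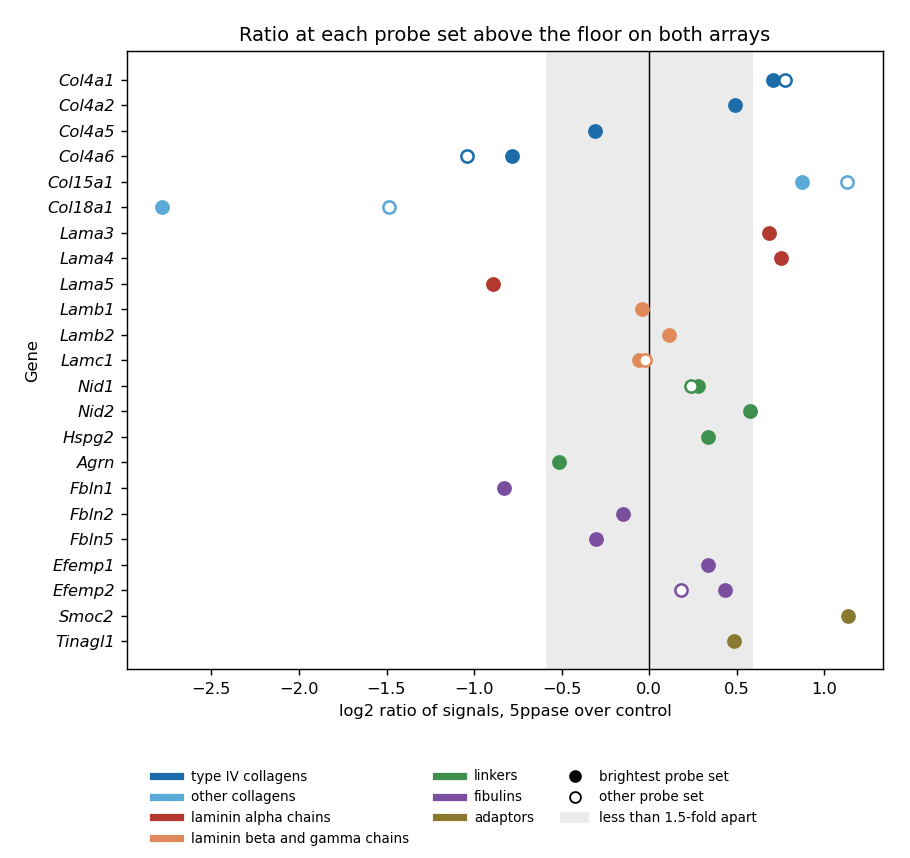
Log2 ratio of signals, 5ppase over control, at each probe set above the floor on both arrays, for the 23 compared genes, 1 array per group; filled points are a gene's brightest probe set and open points another one. Col18a1 lies far left at -2.78 and -1.49, Col15a1 right at 0.87 and 1.13, and the open points share the sign of the filled ones.

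The laminin alpha chains, which carry the sites that cell receptors bind, went different ways. The signal of Lama5 was 2082 in control but 1123 in 5ppase, a log2 ratio of -0.89. Lama4, a chain with a shortened N-terminal part that is found along blood vessels, gave 420 and 709 (0.76). Lama3, the alpha chain of epithelial laminins, gave 275 and 442 (0.68). The ratio of Lama4 stood 1.65 above that of Lama5, and the ratio of Lama3 1.58 above it. None of these had a second probe set above the floor on both arrays. The further probe sets of Lama5 gave 71.2 and 52.1, and 51.9 and 45.5, and that of Lama4 gave 16.5 and 18.2.

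The other alpha chains were dim. Lama2, the chain of muscle laminin and of the brain sheet under astrocyte end feet, gave 17.5 in control and 127 in 5ppase. Lama1, the chain of early embryonic laminin that is also made at the pial surface, gave 31.0 and 71.3. Both lay under the floor in control and above it in 5ppase without reaching the bright signal, so no ratio was taken.

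The beta and gamma chains that pair with several alpha chains stayed close. Lamb1 gave 4706 and 4578 (log2 ratio -0.04) and Lamb2, a beta chain of vessel and synapse laminins, gave 2003 and 2169 (0.12). Lamc1, the gamma chain of most laminins, gave 5165 and 4962 (-0.06), and 1237 and 1216 (-0.03) at its second probe set. These lay within the spread of 0.26, whereas all 3 compared alpha chains were outside 1.5-fold. Lamc3 gave 150 and 169, above the floor but not bright. Lamb3, the partner of Lama3 in epithelial laminin, lay under the floor in both samples (56.5 and 59.3).

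The linker proteins were all within 1.5-fold. Nid2 and Nid1 encode nidogens, which bridge laminin to type IV collagen. Nid2 gave 5228 and 7803 (log2 ratio 0.58), just inside the 1.5-fold line at 1.49-fold, and Nid1 gave 7643 and 9286 (0.28), with 548 and 646 (0.24) at its second probe set. Hspg2, which encodes perlecan, gave 951 and 1200 (0.34). Agrn, which encodes agrin, a proteoglycan that binds laminin and dystroglycan, gave 2455 and 1716 (-0.52). Agrn was the only linker with less signal in 5ppase, and its ratio stood 0.85 below that of Hspg2.

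The fibulins were 2 higher and 3 lower in 5ppase, where 47.9% of all genes compared were higher. Beyond 1.5-fold was 1 of the 5 (background 10.7%), a count too small to set apart from that share. Fbln1, which binds nidogen and fibronectin, gave 720 and 406 (log2 ratio -0.83), and its second probe set gave 74.3 and 31.9, the latter under the floor. Fbln5, needed for elastic fibre assembly, gave 4587 and 3713 (-0.31), and Fbln2, a ligand of nidogen and laminin, gave 33887 and 30601 (-0.15). The EGF-rich family members Efemp1 and Efemp2 had more signal in 5ppase. Efemp1 gave 788 and 994 (0.33), and Efemp2, which recruits lysyl oxidase to elastin, gave 3101 and 4189 (0.43), with 2990 and 3398 (0.18) at its second probe set. The ratio of Efemp2 stood 1.26 above that of Fbln1.

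Of the adaptor proteins, Smoc2, a calcium-binding matrix protein related to SPARC, read 133 in control against 292 in 5ppase, a log2 ratio of 1.14. This was the largest ratio among the members towards 5ppase, from signals close to the bright limit. Its further probe sets stayed under the floor, at 6.5 and 61.0 and at 10.8 and 15.8. Its relative Smoc1 was under the floor as well (26.0 and 39.4). Tinagl1, a secreted protein of vascular and other basement membranes that binds integrins, gave 248 and 347 (0.49), within 1.5-fold.

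**Figure D3:**
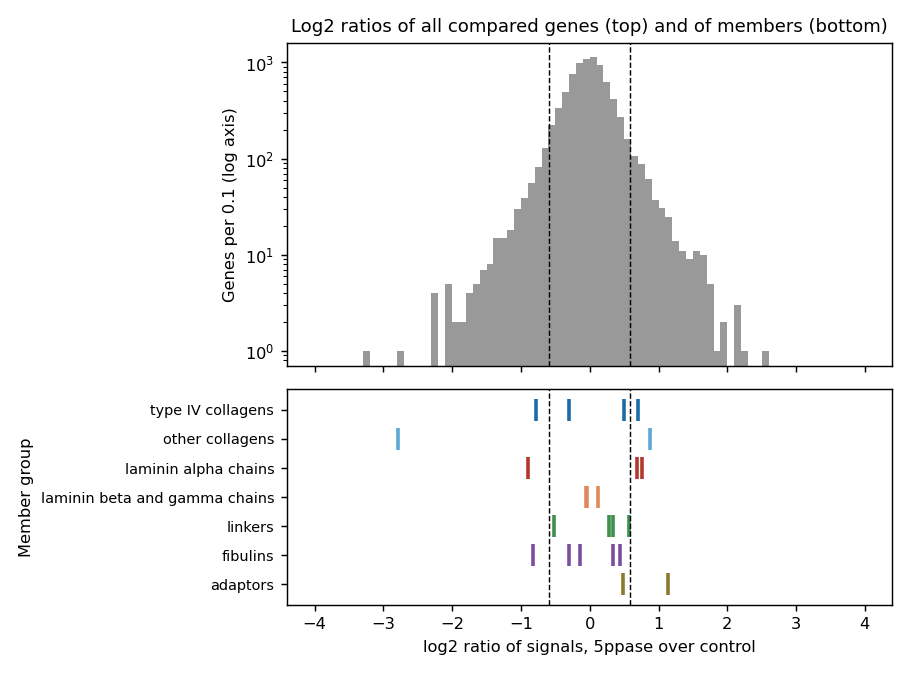
Top, number of genes per 0.1 of log2 ratio (5ppase over control, 1 array each) among the 8261 genes compared, on a log axis; bottom, 1 tick for each of the 23 compared members by group, with dashed lines at 1.5-fold. All 3 compared laminin alpha chains lie outside the dashed lines, as do 10.7% of the 8261 genes, and all 3 compared beta and gamma chains lie near 0.

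Genes that act with these proteins were read from 4 further lists. Of 11 compared receptors for basement membrane proteins, 10 lay within 1.5-fold and the median log2 ratio was 0.05. Lrp4, a receptor for agrin, was the 1 beyond it, at 977 in control and 642 in 5ppase (-0.61). Agrin itself had the ratio -0.52 given above, in the same direction.

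Of 16 compared genes for collagen and basement membrane assembly, 1 was at least 1.5-fold higher and 1 lower, with a median of 0.15. P4ha2, a subunit of the prolyl hydroxylase that stabilises the collagen helix, gave 2010 and 4245 (log2 ratio 1.08). Pxdn, which encodes peroxidasin, the enzyme that forms the sulfilimine cross-links of type IV collagen, gave 6978 and 4167 (-0.74). Pxdn thus differed in the direction of Col4a5 and Col4a6 and not in that of Col4a1 and Col4a2.

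Of 14 compared elastic fibre partners of the fibulins, Ecm1, a secreted glycoprotein that binds perlecan and fibulins, was the 1 beyond 1.5-fold, at 8933 and 16016 (log2 ratio 0.84). The list's median was 0.02. Of 14 compared proteases and inhibitors that act on basement membranes, Adamts5 was higher (1125 and 1917, 0.77) and Mmp3, a protease that cleaves laminin and nidogen, was lower (545 and 112, -2.28). Their median was 0.14. Mmp3 was bright in control only, so it had to differ to be compared. In each of the 4 lists 1 or 2 genes were beyond 1.5-fold, beside 10.7% of all genes compared, so these counts lay near the background.

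**Figure D4:**
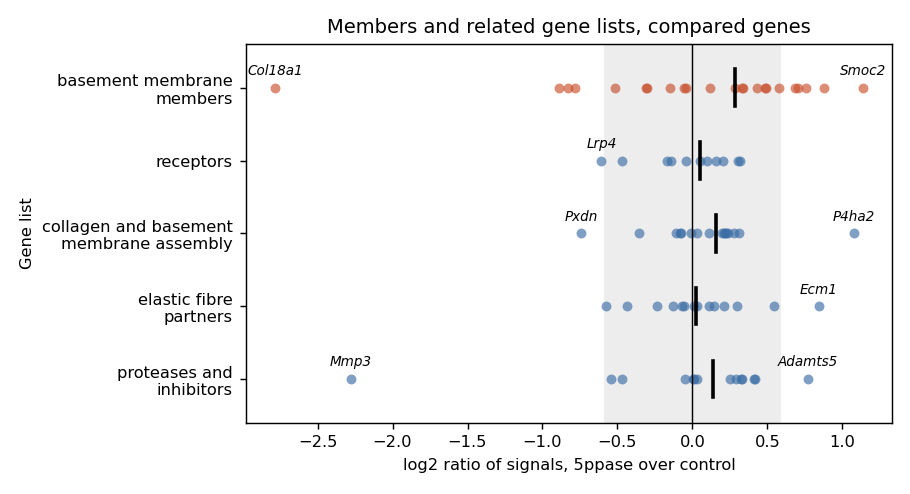
Log2 ratio of signals, 5ppase over control (1 array each), for the 23 compared members and the compared genes of 4 related lists; the black bar is the list's median and grey marks less than 1.5-fold. The members spread from -2.78 to 1.14, and most receptor, assembly, elastic fibre and protease genes lie in the grey band.

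Other cell types make basement membrane genes, so marker lists were read on both arrays. Of 10 astrocyte markers 7 exceeded the floor in both samples, and 5 of these were at least 1.5-fold lower in 5ppase (background 5.46%). Aqp4 gave 432 in control and 25.1 in 5ppase, the latter under the floor, so no ratio was taken. The summed signal of the list was 45760 in control and 26913 in 5ppase, with Gfap, the astrocyte intermediate filament protein, at 17525 and 7408. S100b (3483 and 3611) and the gap junction protein Gja1 (7282 and 7656) were nearly level. Of 12 pericyte or smooth muscle markers 6 were above the floor on both arrays, with sums of 44651 and 59037. Of these 6, 4 had more signal in 5ppase and 2 had less. Acta2 (14268 and 21070) and Tagln (21879 and 28754) held most of these sums. Cspg4 (262 and 630) and Myh11 (857 and 1937) also had more signal in 5ppase. Pdgfrb (1097 and 992) and Cnn1 (6022 and 5447) had less. The pericyte markers Rgs5, Kcnj8 and Abcc9 were under the floor on both. Of 11 endothelial markers 2 were above it, with sums of 1613 and 879 that include Ocln at 1212 and 384, and Pecam1, Kdr, Cldn5, Tie1 and Vwf did not reach it on either array. Of 12 fibroblast or meningeal markers 8 were above it, with sums of 126739 and 123668, and Dcn and Lum were under it. Of the 7 compared, 3 had more signal in 5ppase and 4 had less. Col1a1 gave 32792 and 32414 and Col3a1 gave 25144 and 27757. Pdgfra gave 1018 and 644, and Mgp, bright in control only, gave 1902 and 199. The part of these cell types in the basement membrane ratios was not tested, and fewer cells of a type cannot be told apart from less RNA per cell.

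The remaining marker lists had few members above the floor on both arrays. They were 4 of 10 for neurons (sums 6695 and 13177), 3 of 10 for the oligodendrocyte lineage (3861 and 2245), 2 of 10 for microglia (1321 and 2619), 3 of 9 for choroid plexus or ependyma (901 and 1061) and 2 of 7 for epithelium (353 and 358). Single genes carried several of these sums. Stmn2 gave 3766 and 11065 and Tubb3 gave 87.9 and 290, while the neuronal Gad1 (998 and 422) and Map2 (1737 and 1210) had less signal in 5ppase. Tubb3 was bright in 5ppase only, so it had to differ to be compared. Tmem119 gave 1078 and 2273 among microglial markers. Cldn11 gave 1371 and 47.2 in the oligodendrocyte list, where Cspg4 (262 and 630) went the other way. Over all probe sets the median signal was 107 in control and 109 in 5ppase. Inpp5a, the rat gene of a 5-phosphatase, gave 994 and 1023 at its brightest probe set and 10.4 and 133.6 at another. Since the labels do not name the gene or species of the construct, neither value checks them.

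**Figure D5:**
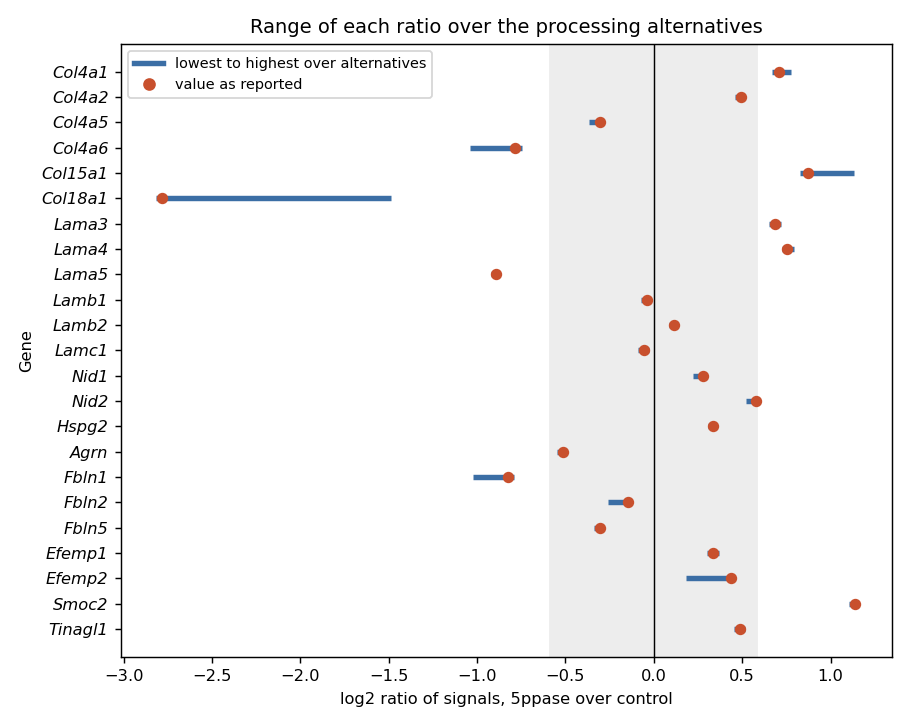
Log2 ratio of signals, 5ppase over control (1 array each), for the 23 compared members; the point is the value as reported and the bar runs from the lowest to the highest value over the alternative processing settings that gave one. Col18a1 has the longest bar, from -2.82 to -1.49, and no bar crosses 0.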

How the data were processed

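The deposited values are single-colour probe set intensities on a linear scale, made by the authors with MAS5 per the submitters' processing notes, for which no version or parameters are stated in the labels. Per the labels' protocols, biotin-labelled cRNA came from 6 ug of total RNA extracted with RNeasy. Both arrays have a trimmed mean of 500.2 (2% removed at each end), and they were scaled to it again, which moved values by rounding only. Of 31099 probe sets, 20832 carried 1 gene symbol in the platform table, 436 several and 9831 none. Where a gene had several, the one with the highest mean over both arrays stood for it. No ratio is printed for a gene with a signal at or under the floor, and no detection calls were used. Marker sums include every listed gene on the array. The procedure was tested on simulated data. With 1 array per group, their number limits the precision of every value.

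The members and lists were chosen with earlier results of these data known. All members were named whatever their values; from each further list up to 4 compared genes at least 1.5-fold apart were named. Other genes, including single markers, were named after their values were seen. Levels were not compared between genes. Promoter windows came from a GRCr8 table, and no genome build is named for the array values. Python 3.11.15, pandas 2.3.3 and statsmodels 0.14.6 were used. Alternatives covered scaling, floor, probe set and fold threshold; genes bright on both arrays were added as an alternative after the data were seen.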

Additional observations from a re-analysis of the deposited data

How the results depend on the processing

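No paired analysis was possible because each group has 1 array. No member ratio changed sign under any alternative that gave it a value, and the 9 ratios beyond 1.5-fold stayed beyond it wherever they could be compared. Of 230 member ratios under alternatives, 227 moved by less than the spread of 0.26. The other 3 were Col18a1 with the mean of probe sets (-2.14) or the second brightest one (-1.49), and Col15a1 with the second brightest (1.13). Many of the 227 could not move, because alternatives that change only the floor or filter leave the ratio of a compared gene as it was. The deposited values, already on the common scale, also gave the same ratios. Counts of members at least 1.5-fold higher were 3 with the floor at the 60th percentile, where Lama3 and Smoc2 were not compared (background 3.86%), and 3 with the mean of probe sets, where Lama4, Lama5 and Smoc2 were not and 3 members were lower (background 6.01% higher and 5.53% lower). With a pseudocount and no floor, 7 of 30 were higher, Lama1 and Lama2 among them, beside 14.1% of all genes, and 4 were lower, beside 12.6%. The share of members on the lower side was then close to that of all genes. Of the 12 members with a second brightest probe set, 7 could be compared there, with 2 higher (background 6.11%) and 2 lower (background 6.69%). With a 2-fold threshold 1 was higher and 1 lower. The members' median ranged down to 0.04, over the 20 members left by that higher floor. Dim genes such as Lama2 and Lama1 have no ratio here, and detection at this signal is not resolved.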
